A study of Mus musculus with 45 samples.

Results

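Cytosolic ribosomal protein genes were examined in 45 RNA-seq libraries of mouse intestinal stem cells and organoids. The members were the 82 genes of the 52636 in each table whose symbol starts with Rpl or Rps and goes on with a number and at most 1 letter, together with Rpsa, Rplp0, Rplp1 and Rplp2. By name, 50 belong to the large ribosomal subunit and 32 to the small one. A cytosolic ribosome is built from rRNA and a set of these proteins, and their genes are among the most highly transcribed of growing cells. Many of their mRNAs start with a C followed by a run of pyrimidines, the terminal oligopyrimidine (TOP) motif, through which mTOR signalling sets how strongly they are translated. In the intestine, Lgr5+ve stem cells divide rapidly, and Rspondins, the ligands of Lgr4 and Lgr5, raise the Wnt signalling that keeps them dividing.

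Sorted eGFP+ve cells came from mice in which a cassette with the diphtheria toxin receptor and eGFP (Lgr5-DTReGFP) is inserted into Lgr5 and disrupts it. Heterozygotes (HE) thus carry 1 disrupted allele and KO carry 2. The E16.5 libraries were pools of 7 and 8 HE embryos and of 2 and 6 KO embryos from litters 85 and 97. Single embryos gave 2 libraries of E18.5 HE cells, and mice 71 and 77, aged 2 months, each gave 1 library of HE duodenum and 1 of HE ileum. In a second line, Lgr5-Cre, a cassette with eGFP and an inducible Cre is likewise inserted into Lgr5. From adult mice of this line, also aged 2 months, recombined ileal cells were sorted 48 h after 2 mg tamoxifen, 2 libraries labelled HE and 3 labelled cKO. The cKO mice carry a floxed exon of Lgr5 opposite the Cre allele, and all these mice carry the red reporter used for sorting. The organoids were cultures at passage 4 from Lgr5-DTReGFP embryos of E17.5, 3 of WT (WT10, WT5, WT30) and 2 of KO (KO7, KO2), each grown with Rspo1, Rspo2 or Rspo3 at 100 or 5 ng/ml, which gave 30 libraries.

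Values are CPM, a gene's reads scaled to the reads counted on all genes of the library. The depth was 1275948 to 9955256 reads in sorted cells and 18127764 to 33112583 in organoids. Lgr5 itself had 104 and 125 CPM in the E16.5 HE pools and 64.8 and 51.7 CPM in the KO pools (log2 fold change −0.97 ± 0.18 SE, limma adjusted p = 0.0795). Stem cell markers were detected in every sorted library, with Lgr5 at 51.7 CPM or more. For 2 of the 5 Lgr5-Cre libraries (HE 1 and cKO 2), the study's own supplementary gene list gives the other genotype, although all 859 genes listed there have the deposited values. Both assignments are given below. Fewer cells of a type and less RNA per cell cannot be told apart in such bulk libraries.

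Promoter windows are shown for 7 members, 3 whose level was higher at E18.5 than at E16.5, 3 whose level was lower, and Rpl13, a reference gene of the study's qRT-PCR. The windows run from 50 bases before to 25 bases from the transcription start that RefSeq gives on GRCm38.p6, and capitals mark the longest run of C or T. Rps26 is on chromosome 10, minus strand (128626482 to 128626556), Rplp0 on chromosome 5, plus strand (115559417 to 115559491), and Rpl27 on chromosome 11, plus strand (101442195 to 101442269). Rps3 is on chromosome 7, minus strand (99483685 to 99483759), Rpl11 on chromosome 4, minus strand (136053369 to 136053443), Rps23 on chromosome 13, plus strand (90923072 to 90923146), and Rpl13 on chromosome 8, plus strand (123102300 to 123102374). Each window ends in the first exon of its gene:
Rps26: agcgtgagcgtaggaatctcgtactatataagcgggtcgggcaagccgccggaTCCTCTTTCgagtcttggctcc
Rplp0: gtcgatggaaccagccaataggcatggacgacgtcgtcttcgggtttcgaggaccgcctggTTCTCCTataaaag
Rpl27: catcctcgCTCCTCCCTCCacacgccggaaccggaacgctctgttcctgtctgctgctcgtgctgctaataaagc
Rps3: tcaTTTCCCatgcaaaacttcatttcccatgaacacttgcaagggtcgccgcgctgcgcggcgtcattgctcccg
Rpl11: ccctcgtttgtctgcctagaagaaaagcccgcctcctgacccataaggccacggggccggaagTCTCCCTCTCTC
Rps23: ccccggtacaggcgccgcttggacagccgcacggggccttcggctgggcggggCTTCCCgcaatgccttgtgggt
Rpl13: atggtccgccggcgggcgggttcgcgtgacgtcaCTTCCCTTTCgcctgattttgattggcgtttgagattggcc
The run is 9 bases in Rps26 and 6 bases in Rps3, whereas in Rpl11 it is 12 bases, reaches the end of the window and may go on. Neither direction of change thus had the longer run in all its examples. In Rpl27, Rps3 and Rpl13 the marked run begins at base −42, −47 and −16, so it lies before the annotated transcript.

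Of the 82 members, 61 had a RefSeq promoter window. A run of at least 10 C or T within 30 bases of the start was present in 21 of the 61 (34.4%) and in 10.7% of all 27025 genes with a window. Within 250 bases before and 50 bases after the start, the motif CCGGAAGT, on either strand, occurred in 12 members (19.7%, against 3.99% of all genes), AAGATGGC in 5 (8.2%, against 2.87%) and TATAAA in 7 (11.5%, against 14.2%). None of the 3 motifs contains another, and the matches describe the letters only.

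Levels between members were compared per kb of exon, because longer genes collect more reads. In sorted cells the highest means were those of Rplp1 (928 CPM per kb), Rpl4 (748.6), Rps15 (567.9), Rpl36 (556.6) and Rpl32 (556.2). In organoids they were those of Rplp1 (1035), Rplp0 (870.0), Rpl36 (631.7), Rps15 (603.9) and Rpl8 (531.6). Rplp0, Rplp1 and Rplp2 form the stalk of the large subunit, which recruits elongation factors, and Rpl4 lines the exit tunnel of the nascent chain. The 5 lowest members were paralogues in both tables. Rps4l had 8.865 CPM per kb in sorted cells and 8.284 in organoids, and Rpl6l had 8.086 and 1.845. Rpl3l, the form of striated muscle, had 0.3976 and 0.1035 CPM per kb. Rpl39l was above 0 in 1 of 15 sorted and 2 of 30 organoid libraries, and Rpl10l, a gene of the testis, in 2 sorted libraries and in 0 of 30 organoid libraries. These 3 did not pass the filter of 1 CPM, so that 79 members were tested in every comparison but that of the Lgr5-Cre cells, where Rpl3l passed too.

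The summed CPM of the family was highest at E16.5. It was 45082 and 54511 in the HE pools, 41016 and 44218 in the KO pools, 32646 and 31302 in the E18.5 cells and 23063 to 31727 in the 4 adult HE libraries. The Lgr5-Cre libraries held 25741 and 29042 CPM in HE and 27416, 29666 and 23497 CPM in cKO. Every E16.5 pool thus exceeded every later sorted library. The family took 4.10% to 5.45% of counted reads at E16.5 and 2.31% to 3.26% in the 11 later libraries. Small-subunit genes made up 38.9% to 40.9% of the family in the Lgr5-DTReGFP cells and 35.03% to 37.03% in the Lgr5-Cre cells, a contrast in which line, sort and tamoxifen cannot be told apart. Organoids grown with 5 ng/ml Rspo3 had the lowest sums, 18043 to 21747 CPM in the 5 cultures. Outside that condition the organoid sums lay between 24154 and 44862 CPM.

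**Figure D1:**
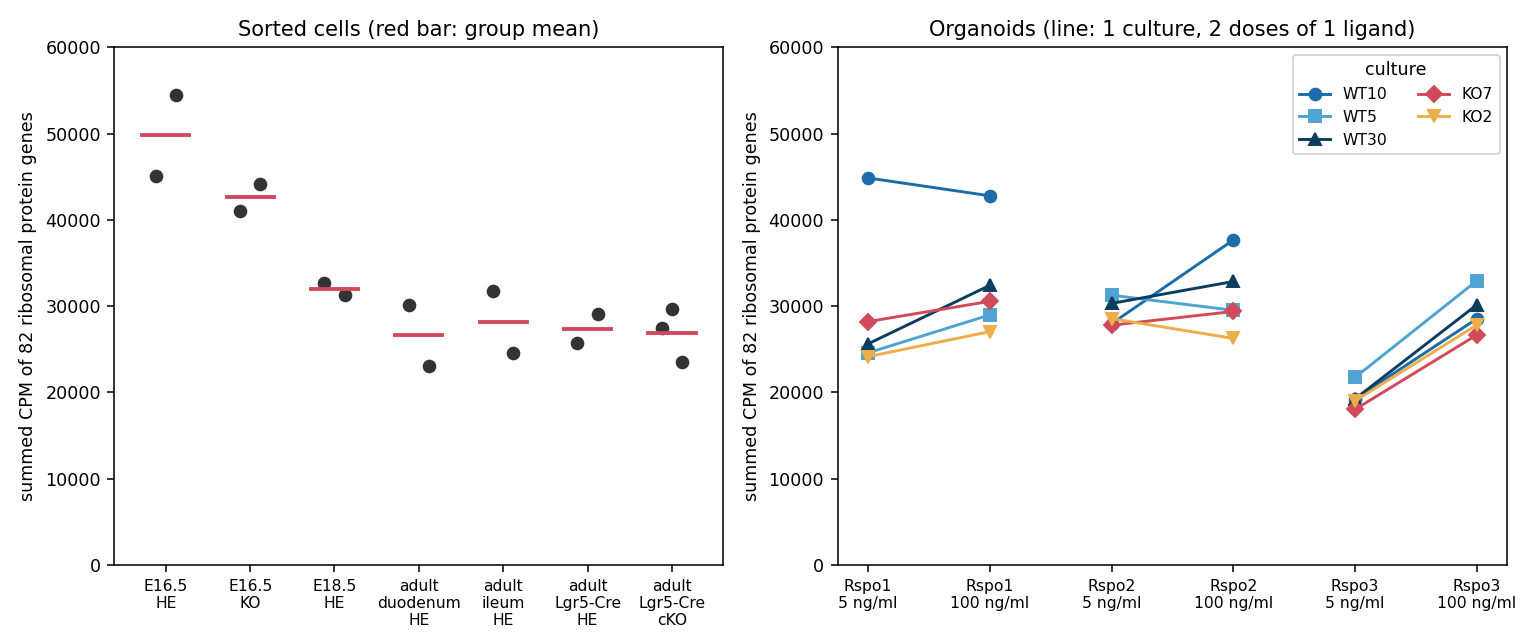
Summed CPM of the 82 ribosomal protein genes in each library, for sorted cells by group on the left (points, libraries; red bars, group means) and for organoids by Rspondin and dose on the right (lines join the 2 doses of 1 ligand in 1 culture). All 4 E16.5 pools lie at 41016 CPM or higher, and all 5 lines rise from 5 to 100 ng/ml for Rspo3, by ratios of 1.462 to 1.566.

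Among the organoids, 3 WT10 libraries stood apart and enter the fold changes of every organoid comparison that uses them. All organoid groups were fitted together and share an estimate of the spread. These libraries thus also enter the tests of comparisons that do not use them, such as those within KO. For Rps3 the SE was 0.288 for the dose of each ligand in KO. How far the counts of calls in KO rest on this shared spread is not shown. With Rspo1 at 100 and 5 ng/ml and Rspo2 at 100 ng/ml, WT10 had sums of 42796, 44862 and 37675 CPM, the 3 highest of the 30. Their small-subunit share was 41.15% to 42.55%, against at most 39.99% in the other 27, and their depth was 18860807, 18455633 and 19305765 reads. The other 3 WT10 libraries, with 27979, 28545 and 19272 CPM (Rspo2 5, Rspo3 100 and Rspo3 5 ng/ml), lay within the range of the other cultures at the same ligand and dose.

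The E16.5 comparison asked what differs in the stem cell precursors when Lgr5 is absent. Most members had somewhat lower levels in KO, but only Rps27a passed the test. Rps27a encodes ubiquitin fused to a small-subunit protein and had 271.20 and 246.20 CPM in the HE pools and 152.05 and 140.55 CPM in the KO pools. Its log2 fold change was −0.82 ± 0.14 (SE), with a limma adjusted p = 0.0677. A gene was called in sorted cells where its FDR was below 0.1 and its fold change above 1.5. Lower calls made up 0.44% of the 17276 genes tested. Of the 79 members, 63 had a negative log2 fold change (42.5% of all genes had) and 23 had an unadjusted p under 0.05 (13.6% of all genes). The median over members was −0.25, beside 0.08 over all genes. Rpl6l, with 9.45 and 8.60 CPM in HE and 1.55 and 2.00 CPM in KO, had the largest fold change (−1.86 ± 0.44, adjusted p = 0.124). Rplp2 had 455.35 and 538.25 CPM in HE and 329.75 and 349.80 CPM in KO (adjusted p = 0.147). Rplp0 and Rpl13 were not called (log2 fold changes 0.27 and −0.04). With litter as a replicate block, 4 members were called (Rps27a, Rps27l and Rpl6l lower, Rps14 higher) and 4.8% of all genes, edgeR on recovered reads called 4 lower (Rps27a, Rplp2, Rps27l and Rpl6l) and 2.38% of all genes, and without any 1 of the 4 pools, 0 were called. Markers of blood and connective tissue moved with these differences: the 6 erythroid genes summed to 1179 and 1059 CPM in HE and 309.5 and 491.6 CPM in KO, and the 9 mesenchymal genes to 1827 and 797 CPM in HE and 182 and 489 CPM in KO. The 7 enterocyte genes summed to 1941 and 1449 CPM in HE and 714 and 581 CPM in KO, and the 8 stem cell genes to 669 and 638 CPM and 878 and 861 CPM. All 6 erythroid and all 9 mesenchymal genes had negative fold changes, and their part in the members' values was not tested. The ratio of the summed family CPM of KO to HE was 0.856 ± 0.123 (SD propagated from the pools, n = 2 each).

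Between E16.5 and E18.5, when the villi mature, the members moved in both directions. A group of 13 was higher at E18.5 (higher calls made up 30.3% of the 18408 genes tested) and a group of 36 was lower (lower calls made up 19.4%). The median log2 fold change over members was −0.41, beside 0.23 over all genes, and the SD over members was 1.05, against 0.05 to 0.32 in the other comparisons. The summed CPM at E18.5 was 0.642 ± 0.088 (SD, n = 2 each) of that at E16.5. In 22 members both E18.5 embryos were above both E16.5 pools and in 44 they were below, which 45.8% and 30.5% of all genes were.

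Rps29, a zinc-binding small-subunit protein, had 21.20 and 29.80 CPM at E16.5 and 217.00 and 221.00 CPM at E18.5, a log2 fold change of 3.07 ± 0.17 (SE, limma adjusted p = 0.000193). Rps26, which touches the mRNA where it leaves the small subunit, had 113.65 and 110.00 CPM at E16.5 and 575.40 and 551.70 CPM at E18.5 (2.32 ± 0.09, adjusted p = 0.000126). Rps20 rose from 90.95 and 144.30 CPM to 536.90 and 525.00 CPM (2.20 ± 0.21). In all 3 both embryos of E18.5 were above both pools of E16.5, while the pools differed more from each other than the embryos did for Rps29 and Rps20. Rplp0 of the stalk (1.28), Rpl27 (1.60), Rps16 (1.39), Rpl7a (1.36) and Rps4l (1.53) were among the other higher calls, with Rps27, Rps28, Rps14, Rps27a and Rpl26.

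Rps3, which lies at the mRNA entry site and also acts in DNA repair, had 2619.25 and 3000.80 CPM at E16.5 and 549.35 and 528.05 CPM at E18.5, a log2 fold change of −2.38 ± 0.11 (SE, limma adjusted p = 0.000133). Rpl11, which with Rpl5 can bind Mdm2 and so restrain the breakdown of p53, had 1342.55 and 1705.45 CPM and then 318.25 and 297.90 CPM (−2.29 ± 0.13). Its partner Rpl5 had 2045.55 and 2609.90 CPM and then 677.80 and 627.70 CPM (−1.82 ± 0.14). Rps23, a protein of the decoding centre, had 848.80 and 1068.90 CPM and then 238.25 and 219.70 CPM (−2.05 ± 0.13). Of the other stalk proteins, Rplp2 fell (−0.95, adjusted p = 0.00143) and Rplp1 was not called (0.02, adjusted p = 0.938). Rpl13 had 394.25 and 460.05 CPM and then 446.95 and 470.90 CPM and was not called either (0.11 ± 0.11, adjusted p = 0.455).

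**Figure D2:**
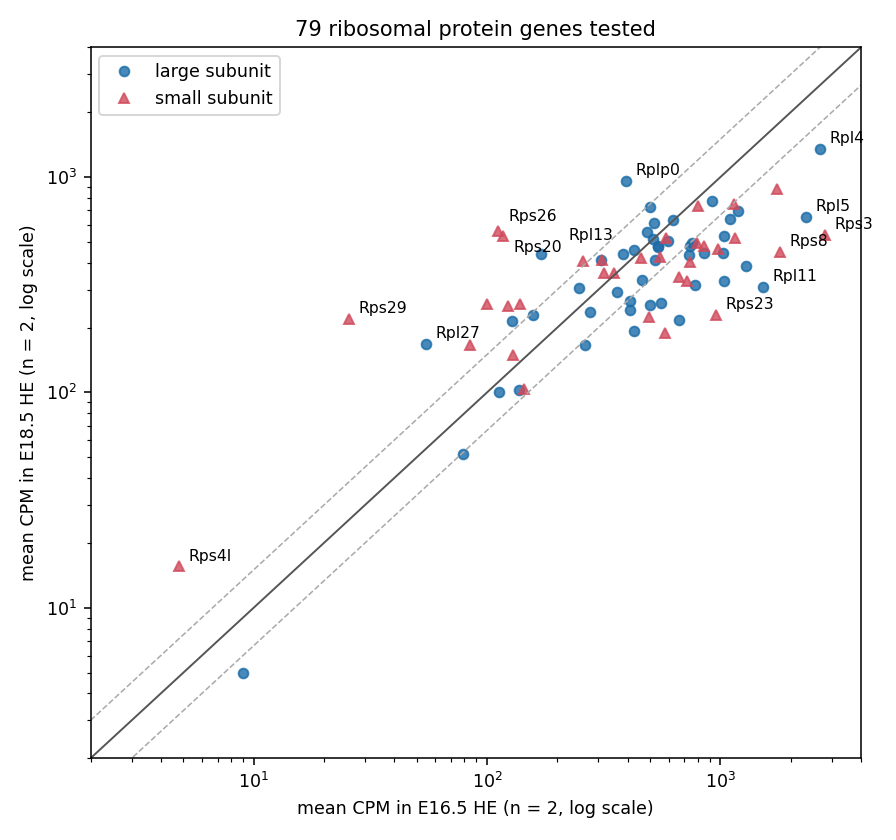
Mean CPM of the 79 tested members in E16.5 HE (horizontal axis, n = 2 pools) and E18.5 HE (vertical axis, n = 2 embryos), both on log scales, with blue circles for large-subunit and red triangles for small-subunit genes. The solid line marks equal levels and the dashed lines a fold change of 1.5, and Rps29 and Rps3 lie farthest above and below it.

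Both directions held genes of both subunits. Among the 32 small-subunit genes tested, 9 were higher and 14 lower, and among the 47 large-subunit genes 4 were higher and 22 lower, with medians of −0.26 and −0.44. The difference between the subunits was not tested. Transcripts up to 500 bases gave 3 higher and 4 lower calls among 15 members, those of over 500 and up to 1000 bases 7 and 23 among 48, and longer ones 3 and 9 among 16. Across members, which are not independent replicates, the fold change had a Spearman's rho of −0.226 with transcript length and −0.324 with total exon length (n = 79). Members with rows named as their pseudogenes, whose reads can be split or dropped in mapping, gave 10 higher and 27 lower calls among 59, and members without such rows 3 and 9 among 20.

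The same split appeared when all E16.5 pools, HE and KO, were set against the 6 later HE libraries of the same line. In 10 members every later library was above every E16.5 pool (20.9% of all 22963 genes did this), and in 39 members every later library was below (14.5% of all genes). The 10 were Rps27a, Rps26, Rps20, Rps29, Rps16, Rpl7a, Rpl27, Rplp0, Rps28 and Rps27. With the 5 Lgr5-Cre libraries added, 9 and 32 members remained apart, as did 13.1% and 8.82% of all genes. The 5 highest members took 21.7% to 22.9% of the family's CPM at E16.5 and 14.8% to 16.7% in the 11 later libraries. Other values moved with the same split. Histone rows summed to 1501 to 1756 CPM at E16.5 and 4079 to 11434 CPM later, the depth was 1275948 to 2611291 reads against 3084684 to 9955256, and the mesenchymal markers summed to 182 to 1827 CPM against 3.15 to 81.8 CPM. Erythroid markers summed to 310 to 1179 CPM at E16.5 and 1.6 to 55.0 CPM later, and stem cell markers to 638 to 878 CPM and 2521 to 6545 CPM. Leukocyte markers summed to 7.00 to 69.9 CPM at E16.5 and 2.5 to 1345 CPM later, which overlap. Their part in the split was not tested. Without either 1 of the E18.5 libraries the limma test called 0 members, and 0 of all genes, although the member medians were then −0.41 and −0.37.

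From E18.5 to the adult, where crypts have formed and Paneth cells are present, 2 members were called. Rps4l, the autosomal paralogue of Rps4x on chromosome 6, had 15.50 and 15.60 CPM at E18.5 and 3.60, 2.20, 4.30 and 1.85 CPM in the adult libraries (log2 fold change −2.10 ± 0.30 SE, limma adjusted p = 0.00415). Rpl26, which can bind p53 mRNA, had 234.30 and 193.20 CPM at E18.5 and 99.90, 107.80, 81.50 and 98.45 CPM in the adult (−1.13 ± 0.15, adjusted p = 0.00257). In both genes each of these adult libraries was below both embryos. The adult Lgr5-Cre libraries, which were not in this test, had 61.1 to 485.0 CPM of Rpl26 and 7.9 to 16.8 CPM of Rps4l. Those ranges reach above the E18.5 levels, so the fall is shown for the Lgr5-DTReGFP line only. Both calls were lower, where lower calls made up 9.65% of the 19554 genes tested. With no fold limit 6 were called lower (13.1% of all genes). Rps4x itself had 893.15 and 857.70 CPM at E18.5 and 698.30 to 971.00 CPM in the adult (adjusted p = 0.776). In all, 76 of 79 members had a negative fold change, as had 53.4% of all genes, with a median of −0.24 beside −0.04. The 4 adult libraries come from 2 mice, and with the mean of the regions of each mouse the same 2 members were called, where lower calls made up 11.8% of all genes. The summed CPM was then 0.856 ± 0.160 (SD, n = 2 mice and 2 embryos) of that at E18.5. Marker genes moved with this step. The 6 Paneth markers summed to 146 and 152 CPM at E18.5 and 11380 to 28690 CPM in the adult libraries, the 3 tuft markers to 1.70 and 4.65 CPM and then 168 to 2446 CPM, the leukocyte markers to 2.5 and 3.1 CPM and then 235 to 1345 CPM, and the enterocyte markers to 1551 and 1248 CPM and then 118 to 627 CPM. Mki67 had 1495 and 1617 CPM and then 882 to 1077 CPM. Their part in the members' values was not tested.

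Levels differed between the animals in more members than between the gut regions. The limma test of ileum against duodenum called 0 members, with 1 at an unadjusted p under 0.05, while 6.88% of the 18608 genes tested were called. The summed CPM was 30147 in duodenum and 31727 in ileum of mouse 71, and 23063 and 24522 in mouse 77, a ratio of ileum to duodenum of 1.06 ± 0.01 (SD, n = 2 mice). Of the 79 members, 49 were higher in ileum in both mice (35.4% of all genes were), and 76 were higher in mouse 71 than in mouse 77 in both regions (36.6% of all genes were). Rpl10, a protein that joins the large subunit late in its assembly, had 675.10 and 546.80 CPM in duodenum and 784.95 and 682.35 CPM in ileum (log2 fold change 0.27 ± 0.18, adjusted p = 0.56).

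The Lgr5-Cre comparison asked what follows when Lgr5 is removed from adult stem cells for 48 h. Lgr5 itself was not lower in the libraries labelled cKO, with 89.15, 109.30 and 90.65 CPM against 52.80 and 87.55 CPM in those labelled HE (log2 fold change 0.49 ± 0.22 SE, limma adjusted p = 0.864). With the genotypes of the study's own list, cKO had 52.80, 89.15 and 90.65 CPM and HE 87.55 and 109.30 CPM, which overlap. These values count reads of the whole gene, also outside the floxed exon, so that they check the genotypes only in part, and no direction between the genotypes is drawn from either assignment alone. As labelled, limma called 0 of 80 members, with 2 at an unadjusted p under 0.05 (4.54% of all genes), and 0.0504% of the 19848 genes tested were called. The median was −0.04, beside 0.09 over all genes, and the summed CPM in the libraries labelled cKO was 0.981 ± 0.141 (SD, n = 3 and 2) of that in those labelled HE. With the genotypes of the list, Rps21 was called lower in cKO (−0.77, adjusted p = 0.0626), where lower calls made up 1.38% of all genes. There 31 members had an unadjusted p under 0.05, which 21.4% of all genes had, and the median was −0.19, beside 0.13 over all genes. The summed CPM was then 29042 and 29666 in HE and 25741, 27416 and 23497 in cKO, a ratio of 0.870 ± 0.068 (SD, n = 3 and 2), and the groups did not overlap. Without the library labelled cKO 2, Rpl29 was called higher in the libraries labelled cKO (2.39 ± 0.13, where higher calls made up 0.0714% of all genes). That omission removes the labelled cKO value that lay with HE, so the call does not tell genotype from animal. Rpl13, Rplp0 and Rpsa had adjusted p of 0.942, 0.913 and 0.997 as labelled. Rpl29 had 40.10 and 39.25 CPM in the libraries labelled HE and 224.20, 38.50 and 200.15 CPM in those labelled cKO (1.58 ± 0.68, adjusted p = 0.864), so that 1 of the latter lay with the former.

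In organoids, members rose with the dose of Rspo3 in both genotypes. In WT, 64 members were higher at 100 than at 5 ng/ml and 0 were lower, at an FDR of 0.05, where higher calls made up 37.8% of the 19130 genes tested. The median log2 fold change was 0.60, beside 0.24 over all genes. In KO, 33 members were higher and 0 lower, where higher calls made up 32.7%, with a median of 0.56 beside 0.24. All 79 had a higher CPM at 100 ng/ml in each of the 5 cultures, which 50.1% of all genes had. The summed CPM went from 19272, 21747 and 19261 to 28545, 32956 and 30164 in WT10, WT5 and WT30, and from 18043 and 19033 to 26673 and 27827 in KO7 and KO2. The ratio was 1.501 ± 0.04 (SD, n = 5 cultures), and no culture at 5 ng/ml reached the lowest one at 100 ng/ml.

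Rpl3, a protein next to the peptidyl transferase centre, led in both genotypes. It had 267.45, 328.65 and 286.90 CPM at 5 ng/ml and 518.10, 620.95 and 536.25 CPM at 100 ng/ml in WT10, WT5 and WT30, a log2 fold change of 0.92 ± 0.12 (SE, limma adjusted p = 8.9e-07). In KO7 and KO2 it had 268.15 and 311.30 CPM and then 481.00 and 559.80 CPM (0.84 ± 0.14, adjusted p = 5.5e-05). Rpl14 followed in WT (0.85, adjusted p = 0.000175) with Rpl22 (0.85, adjusted p = 0.00517), and Rpl12 of the stalk base (0.78, adjusted p = 0.02) and Rpl14 (0.76, adjusted p = 0.00417) in KO. Rpsa, which is also known as the laminin receptor, had 444.80, 486.60 and 565.75 CPM and then 782.80, 879.30 and 982.35 CPM in WT (0.82 ± 0.20, adjusted p = 0.00189). The smallest of the WT calls were Rpl6l (0.42), Rps29 (0.42) and Rpl10 (0.42), and those in KO were Rpl28 (0.41), Rps26 (0.44) and Rpl23 (0.48). Rplp0 and Rplp2 passed the test in both genotypes, whereas Rplp1 had 0.46 in each (adjusted p = 0.0903 in WT and 0.179 in KO). Rpl13 had 379.55, 422.45 and 378.60 CPM at 5 ng/ml and 580.15, 674.00 and 602.60 CPM at 100 ng/ml in WT (0.65 ± 0.13, adjusted p = 0.000151).

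These counts depended on the settings more than the direction did. With TMM scaling, which centres the bulk of genes and moved the median of all genes from 0.24 to 0.05 in WT and to 0.02 in KO, 25 members were called higher in WT (26.1% of all genes) and 2 in KO (22.2%), with medians of 0.33 and 0.28. A fold limit of 1.5 left 42 and 19 (25.2% and 25.6% of all genes). With culture as a replicate block 72 and 50 were called higher (44.8% and 39.8%). Leaving out WT30 gave 29 calls in WT (30.8%), and leaving out KO7 or KO2 gave 4 or 8 in KO (22% and 23.1%). In KO the members' share of calls was thus below that of all genes under TMM scaling and with either culture left out, and near it with the fold limit. In WT the members' share was only a little above that of all genes under TMM scaling and without WT30. The difference between the dose effects in KO and WT was tested as an interaction. For each of the 3 ligands 0 of 79 members passed the limma test and 0 had an unadjusted p under 0.05. Of all 19130 genes, 0, 84 and 0 passed for Rspo1, Rspo2 and Rspo3, and 516, 2438 and 430 had an unadjusted p under 0.05. For Rspo1 and Rspo3 the absence of calls thus holds for all genes alike. The median difference of KO minus WT was −0.05 for Rspo3.

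**Figure D3:**
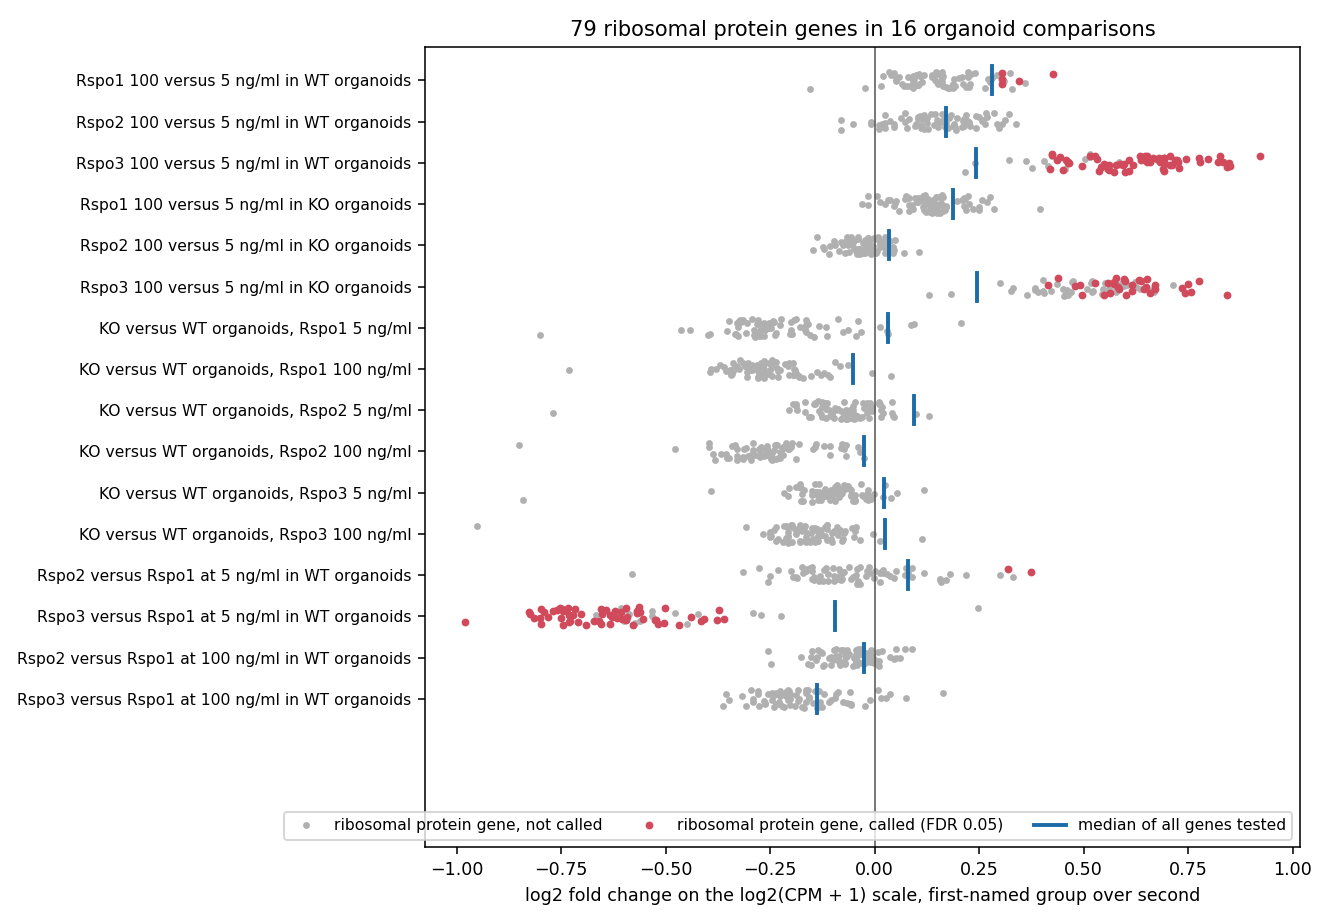
Log2 fold changes of the 79 tested members (points; red where called at FDR 0.05) in each of 16 organoid comparisons, on the log2(CPM + 1) scale with the first-named group over the second, with the median of all 19130 genes tested as a blue bar. The median of the points lies to the right of the bar for the dose of Rspo3 (0.60 beside 0.24 in WT) and to its left for Rspo3 against Rspo1 at 5 ng/ml (−0.61 beside −0.09), a comparison that rests on the WT10 library described in the text.

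For the dose of Rspo1 limma called few members, and in WT that count depended on the WT10 libraries. In WT, 5 were higher at 100 ng/ml (higher calls made up 40.9% of all genes tested): Rpl3 (0.43 ± 0.12 SE, limma adjusted p = 0.00397), Rpl5 (0.35), Rpl4 (0.31), Rps6, a target of the S6 kinases (0.31), and Rps4x (0.30). The median over members was 0.16, below the 0.28 over all genes. With TMM scaling it was −0.18 beside 0.00 over all genes, with Rpl4 and Rps4x then at −0.04, Rpl5 at 0.00 and Rpl3 at 0.08. There 0 members were called higher and Rpl28 was called lower, where lower calls made up 23.9% of all genes. Without WT10, 32 members were higher (32% of all genes), and without the 3 WT10 libraries that stood apart 37 were (34.7% of all genes), with a median of 0.28 beside 0.26. In KO, limma called 0 members and 0 had an unadjusted p under 0.05, while 29.8% of all genes were called. The median there was 0.13, or −0.11 with TMM scaling. The KO test shares its spread with the WT10 libraries that stood apart. The ratio of the sums was 0.954 in WT10, 1.18 in WT5, 1.26 in WT30, 1.08 in KO7 and 1.12 in KO2, and 21 members were higher at 100 ng/ml in all 5 cultures (48.8% of all genes were).

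The dose of Rspo2 had no called member in either genotype by limma, and 0 had an unadjusted p under 0.05 in WT or KO. Of all genes, 33.4% were called in WT and 0.115% in KO. The tests in both genotypes share their spread with the WT10 libraries that stood apart. The sums were higher at 100 ng/ml in WT10 (ratio 1.35), WT30 (1.08) and KO7 (1.06) and lower in WT5 (0.944) and KO2 (0.920). None of the 79 members was higher at 100 ng/ml in all 5 cultures, against 22.9% of all genes. The median over members was 0.16 in WT and −0.02 in KO and became −0.08 and −0.10 with TMM scaling.

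The other genes of the translation machinery did not all follow the family. With Rspo3, 74 of 79 ribosome biogenesis factors, which process rRNA and assemble subunits, were higher at 100 ng/ml in WT and 74 in KO, with median log2 fold changes of 1.21 and 1.40. Of the 78 mitochondrial ribosomal protein genes, 45 and 31 were higher (medians 0.45 and 0.37), as were 24 and 19 of 28 initiation factors (0.64 and 0.62), 5 and 5 of 6 elongation factors (0.65 and 0.62), 8 and 8 of 9 snoRNA host genes (1.32 and 1.504) and 8 and 8 of 12 other TOP mRNAs (0.67 and 0.61). For Rspo3, higher calls made up 37.8% of all genes tested in WT and 32.7% in KO. With Rspo1, 71 of 79 biogenesis factors were higher in WT and 61 in KO (medians 0.91 and 0.67), where 5 and 0 of the members were called. Of all 19130 genes, 7830 and 4190 were higher. The WT values for Rspo1 include the WT10 libraries that stood apart, without which more members were called higher. Rspo2 gave 28 higher and 2 lower biogenesis factors in WT and 0 in KO, where 4650 and 22 of all genes were higher and 1745 and 0 lower. Of 10 p53 targets, 6 were higher with Rspo3 in WT and 6 in KO, and with Rspo1 6 and 5. Proliferation moved with the dose of Rspo3 too: Mki67 was 64.8 to 122.7 CPM at 5 ng/ml and 380.6 to 604.5 CPM at 100 ng/ml, and Lgr5 0.20 to 0.60 and 35.15 to 50.65 CPM. Enterocyte markers summed to 8579 to 9556 CPM at 5 ng/ml and 3675 to 7143 CPM at 100 ng/ml Rspo3. Mki67 also rose with the dose of Rspo1, from means of 279.5 to 608.8 CPM in WT and 418.4 to 650.7 CPM in KO. With Rspo2 its means were 510.1 and 512.7 CPM in WT and 606.6 and 583.3 CPM in KO. The part of these markers in the members' rise was not tested. With TMM scaling the medians of the biogenesis factors stayed positive for Rspo3 (0.95 in WT and 1.14 in KO) and Rspo1 (0.57 and 0.43), whereas those of the mitochondrial ribosomal proteins were 0.20 and 0.09 for Rspo3 and turned to −0.28 and −0.22 for Rspo1.

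**Figure D4:**
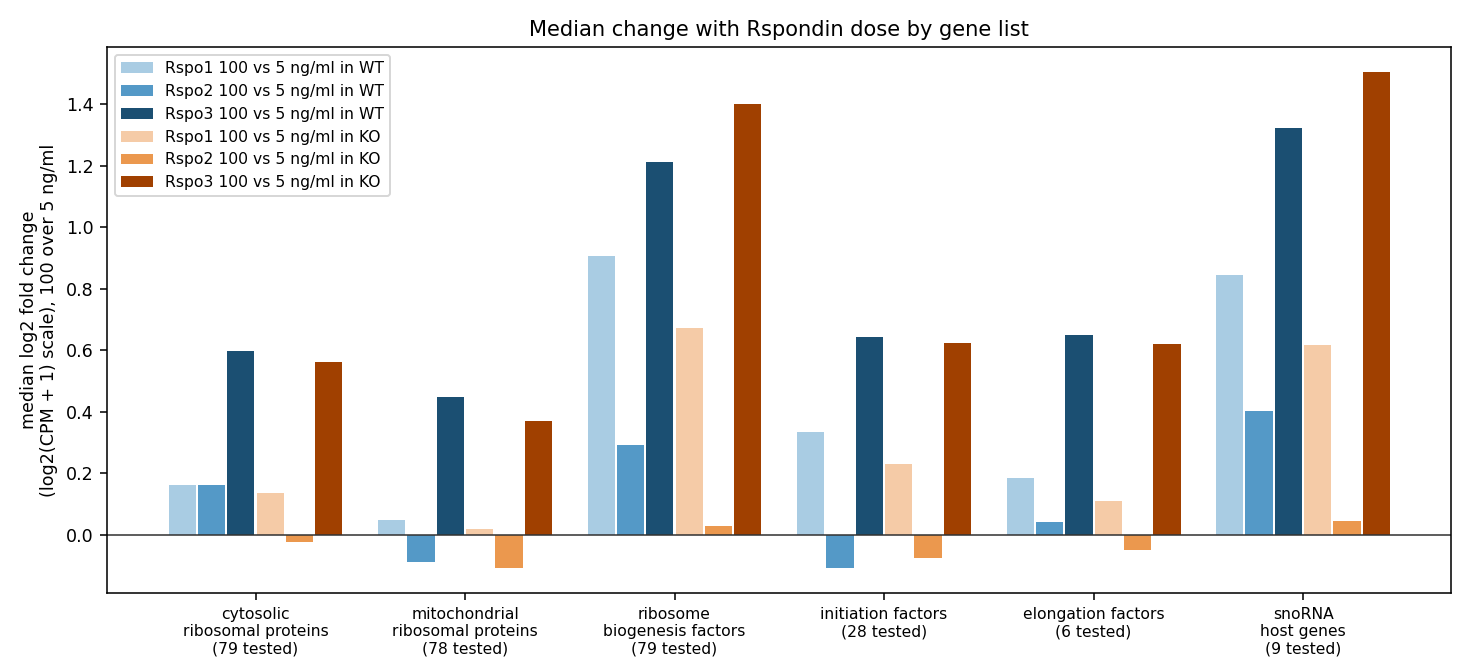
Median log2 fold change from 5 to 100 ng/ml (log2(CPM + 1) scale) of the tested genes in each of 6 lists of the translation machinery, one bar for each ligand in WT (blue) and KO (orange) organoids. The bars of ribosome biogenesis factors reach 0.91 and 0.67 for Rspo1, where those of the cytosolic ribosomal proteins reach 0.16 and 0.13 (0.57, 0.43, −0.18 and −0.11 with TMM scaling, which is not plotted). The WT bars for Rspo1 and Rspo2 include the WT10 libraries that stood apart, as described in the text.

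Ligands were also compared at 1 dose in WT organoids. At 5 ng/ml, 61 members were lower with Rspo3 than with Rspo1 (lower calls made up 12.7% of all genes tested), with a median of −0.61 beside −0.09 over all genes. Rps21 (−0.98, limma adjusted p = 0.0249), Rpl22 (−0.83) and Rpl12 (−0.82) were lowest. WT10 with Rspo1 had 281.25 CPM of Rps21, against 97.90 and 113.95 CPM in WT5 and WT30 with Rspo1 and 62.50, 83.85 and 76.55 CPM in the 3 cultures with Rspo3. Without WT10, Rpl3 and Rpl27a were called lower (2.73% of all genes), without WT30 9 members (5.34%), and without the 3 WT10 libraries that stood apart 37 were (10.3%), with a median of −0.34. Rpl4 (0.37, adjusted p = 0.0314) and Rps4x (0.32, adjusted p = 0.0306) were higher with Rspo2 than with Rspo1 at 5 ng/ml, where higher calls made up 16.4%. Neither call held under every setting, and 0 were called with TMM scaling or without any 1 of the WT cultures. At 100 ng/ml limma called 0 members for Rspo2 or Rspo3 against Rspo1, with 0 at an unadjusted p under 0.05 in both, where 0.204% and 0.00523% of all genes were called. These comparisons share their Rspo1 libraries.

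Loss of Lgr5 did not bring a member past the limma threshold in organoids. For KO against WT, 0 of 79 were called at Rspo1 5 ng/ml (0.125% of all genes were called), Rspo1 100 ng/ml (0.214%), Rspo2 5 ng/ml (4.54%), Rspo2 100 ng/ml (1.2%), Rspo3 5 ng/ml (0.193%) and Rspo3 100 ng/ml (0.868%). Unadjusted p were under 0.05 for 0, 1, 0, 2, 0 and 1 members in the same order, as for 8.36%, 8.82%, 22.1%, 12.3%, 5.4% and 10.7% of all genes. Most members were nevertheless a little lower in KO: 73, 78, 66, 79, 74 and 77 of 79 had negative fold changes (44.1%, 59.6%, 37.0%, 54.4%, 44.0% and 45.6% of all genes). The medians were −0.25, −0.27, −0.07, −0.26, −0.10 and −0.15, beside 0.03, −0.05, 0.09, −0.03, 0.02 and 0.02 over all genes. Without WT10 the median at Rspo1 5 ng/ml became 0.07. The comparisons at Rspo1 100 ng/ml and Rspo2 100 ng/ml also hold a WT10 library that stood apart, with 42796 and 37675 CPM. Their medians are given with it only, so how far they rest on it is not shown. The sums of WT and KO overlapped at Rspo1 5 ng/ml (24599 to 44862 and 24154 to 28218 CPM), Rspo1 100 ng/ml (28991 to 42796 and 27051 to 30565 CPM) and Rspo2 5 ng/ml (27979 to 31270 and 27799 to 28560 CPM). At Rspo2 100 ng/ml they were 29525 to 37675 CPM in WT and 26263 and 29389 CPM in KO, without overlap. At Rspo3 100 ng/ml the sums were 28545, 32956 and 30164 CPM in WT and 26673 and 27827 CPM in KO, and the groups did not overlap. At Rspo3 5 ng/ml they were 19272, 21747 and 19261 CPM in WT and 18043 and 19033 CPM in KO, again without overlap.

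The members' own spread differed between the tables. In sorted cells, Rps29, Rps26 and Rpl11 had the largest range of group means (3.07, 2.73 and 2.68 on the log2(CPM + 1) scale), between E16.5 and a later group in each. In organoids, Rpl22, Rpsa and Rps21 had the largest (1.23, 1.22 and 1.19), with their lowest level at Rspo3 5 ng/ml. Rpl13 had a range of 0.36 in sorted cells and of 0.95 in organoids, where it was lowest in KO with 5 ng/ml Rspo3 and highest in WT with 100 ng/ml Rspo2.

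A few members had levels that went with the animal or culture rather than with a group. They were picked after their values were seen, so this pattern was not tested. Rpl29, a large-subunit gene with many pseudogene copies in mammals, had 42.35 and 31.05 CPM in the HE and KO pools of litter 85 and 116.05 and 82.60 CPM in those of litter 97. In mouse 71 it had 140.40 CPM in duodenum and 161.55 CPM in ileum, and in mouse 77 31.45 and 44.90 CPM. Of the Lgr5-Cre libraries, 2 of cKO had 224.20 and 200.15 CPM and the other 3 had 38.50 to 40.10 CPM. Rpl26 had 463.60, 453.35 and 485.00 CPM in 3 Lgr5-Cre libraries (HE 2, cKO 1 and cKO 2) and 70.90 and 61.10 CPM in the other 2. In organoids both genes lay between 20.8 and 49.0 CPM in every library.

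Rps2 and Rps4l followed the organoid culture. At each of the 6 combinations of ligand and dose, WT30 and KO2 were the lowest for Rps2, and KO7 was the lowest for Rps4l. Rps2 lay between 163.9 and 276.9 CPM in WT30 and between 173.75 and 356.65 CPM in KO2, but between 534.7 and 843.85 CPM in WT5, 364.45 and 730.8 CPM in WT10 and 336.05 and 587.55 CPM in KO7. The 2 low cultures are thus 1 of each genotype. Rps4l was 0.85 to 1.90 CPM in KO7 and 8.90 to 13.45 CPM in KO2, with 4.45 to 11.75 CPM in the WT cultures. The range of the 5 culture medians was 2.62 for Rps4l and 1.66 for Rps2 on the log2(CPM + 1) scale, against a median of 0.318 over the members.

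**Figure D5:**
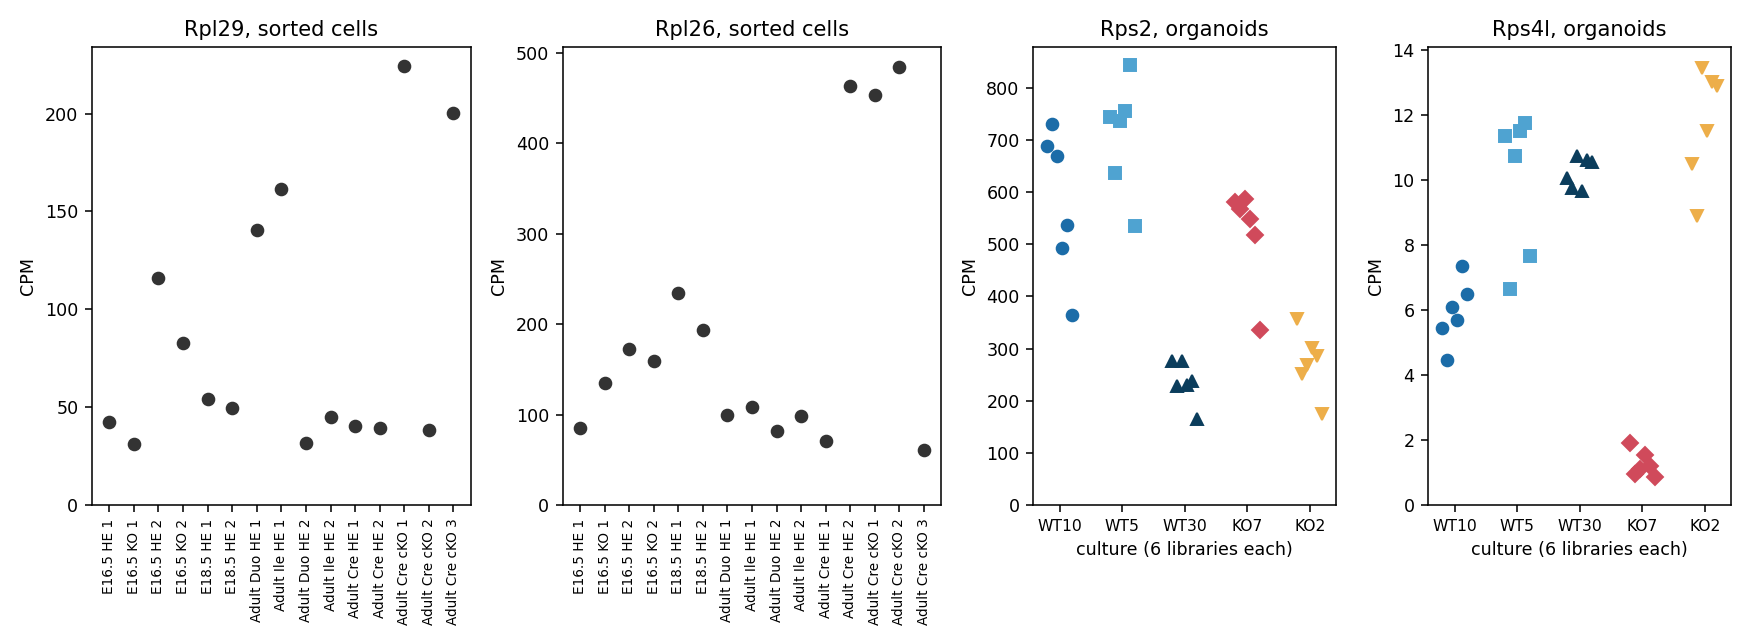
CPM of Rpl29 and Rpl26 in each of the 15 sorted libraries (the 2 panels on the left) and of Rps2 and Rps4l in the 6 libraries of each organoid culture (the 2 panels on the right), on linear axes that start at 0. Rpl29 lies at 140.4 CPM or higher in 4 libraries, Rps2 is low in WT30 and KO2, and Rps4l is at 1.90 CPM or lower in KO7 alone.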

How the data were processed

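RNA was sequenced as paired ends from Ovation SoLo libraries of sorted cells and from rRNA-depleted NEBNext libraries of organoids. According to the submitters' processing notes and the methods, reads were trimmed with Trimmomatic 0.36, mapped to GRCm38 (GRCm38.p4, mm10) with STAR 2.5.3a and counted on Ensembl genes with HTSeq 0.9.1. The authors deposited CPM for 52636 genes, in 1 table for sorted cells and 1 for organoids, rounded up to the next 0.05, so levels were compared within a table only. Reads that map to a gene and its pseudogenes alike are lost or split, and 276 rows carry names of ribosomal protein pseudogenes, so members with such copies are uncertain. No columns were left unmapped. The depth was recovered from the steps between low CPM values (100% of low values whole in the E16.5 pools), and precision follows it: at the lowest depth 1 read is worth 0.784 CPM.

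Values were taken as log2(CPM + 1), which understates changes of low genes. Genes entered the test if they reached 1 CPM in a number of libraries equal to the size of the smaller group (sorted cells) or in 2 libraries (organoids), and were tested with limma 3.58.1 (lmFit, eBayes with trend) in R 4.3.3, with Benjamini-Hochberg adjustment over all of them. Sorted groups were fitted pair by pair and called where the FDR was below 0.1 with a fold change above 1.5, and the 12 organoid groups in 1 fit with an FDR below 0.05. The E16.5 pools were also tested as recovered read counts with edgeR 4.0.16 (quasi-likelihood) and DESeq2 1.42.0, which called 4 and 2 members. In the deeper libraries the rounding blurs the steps, so these tests were not run on them. The summed CPM and the lists got no test. On simulated data with known changed genes the fits were checked before use. p-values measure the spread between the libraries, and E18.5 and Lgr5-Cre numbers are not said to pair animals.

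Litter at E16.5, mouse for the adult regions and culture for organoids pair libraries by their labels. The deviations from group means of paired libraries correlated at −0.0347 at E16.5, at 0.254 between regions and at 0.158 to 0.782 among organoids. Results with these as a replicate block stand beside a result where they moved its count by over 1.5 times. Named genes were a fixed list (Rpl13, the stalk proteins, Rpsa, Rps27a and 5 pairs of paralogues), the 3 largest rises and falls called in each comparison, and the highest, lowest and most variable members, with others named for a role or a count. The members, lists and rules were chosen with earlier results of these data known. Gene coordinates are those of GRCm38. The alternatives were TMM scaling, totals without mitochondrial or rRNA rows, a pseudocount of 0.1, no filter, other fold limits, single adult regions, the block and each library or culture left out. Figures were drawn with matplotlib 3.10.9 in Python 3.11.15.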

Additional observations from a re-analysis of the deposited data

How the results depend on the processing

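The E16.5 comparison of KO with HE called 1 member, and 0 with a pseudocount of 0.1 or with no filter, 2 with TMM scaling (Rps27a and Rpl6l), 4 with litter as a replicate block, 4 by edgeR and 2 by DESeq2 (Rps27a and Rplp2) on recovered reads. The adult comparison with E18.5 called 2 members, or 6 with no fold limit, and the Lgr5-Cre comparison 0, or 1 with the genotypes of the study's list. For Rspo1 in WT the 5 calls became 3 with no filter, 1 with TMM scaling, 0 with a fold limit of 1.5 and 37 without the 3 WT10 libraries, a choice made after seeing the data. TMM scaling also turned Rpl4 (−0.0384) and Rps4x (−0.03969) there. For Rspo3 the 64 calls in WT became 25 with TMM scaling and 42 with a fold limit of 1.5, and the 33 in KO became 2 and 19, and 50 with culture as a replicate block. Rspo2 against Rspo1 at 5 ng/ml gave 2 calls, 0 with no filter, TMM scaling or a fold limit, and 8 without the 3 WT10 libraries. Rspo3 against Rspo1 at 5 ng/ml gave 61, or 40 with no filter and 37 without the 3 WT10 libraries.

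With 1 library or culture left out, where a lone library is assumed to vary like its comparison group, the calls ranged from 0 to 0 at E16.5, 0 to 49 between E16.5 and E18.5, 2 to 3 for adult against E18.5, 0 to 1 for Lgr5-Cre, 1 to 32 for Rspo1 in WT, 29 to 76 and 4 to 8 for Rspo3 in WT and KO, 0 to 0 for Rspo2 against Rspo1 and 2 to 71 for Rspo3 against Rspo1 at 5 ng/ml. KO against WT ranged from 0 to 1 with Rspo2 and Rspo3 at either dose, where Rps4l was called without KO2, and from 0 to 0 with Rspo1. The ratios of summed CPM ranged from 0.7818 to 0.9453 for E16.5 KO to HE, 0.5866 to 0.7092 for E18.5 to E16.5 and 1.484 to 1.51 for the dose of Rspo3. Of all genes, 30.8% were called higher where Rspo3 in WT gave 29 calls, and 32% where Rspo1 in WT gave 32. Where Rspo3 against Rspo1 gave 2 calls, 2.73% of all genes were called lower. A count printed without such a share, here or above, does not set the members apart from all genes. The causes were not tested. Over all genes called for a dose, TMM scaling moved the share of higher calls from 76.6% to 48.1% for Rspo1 in WT, 73.6% to 46.7% in KO, 72.7% to 41.4% for Rspo2 in WT, and 73.4% to 53.8% and 73.6% to 52.5% for Rspo3 in WT and KO. It moved that of the ligand comparisons at 5 ng/ml from 72.1% to 52.5% (Rspo2) and 22.5% to 37.7% (Rspo3), and that of KO against WT with 5 ng/ml Rspo2 to 54.4% from 608 higher and 260 lower calls.

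Replicate numbers that mark no shared animal gave, as a replicate block, 48 calls (13 higher, 35 lower) between E16.5 and E18.5 and 0 for Lgr5-Cre, with correlations of −0.0215 and of 0.16 to 0.426. The block moved no other count by over 1.5 times. Read-count tests of the other comparisons were not run. The total without the 6 rows of rRNA, also chosen after seeing the data, left every count within 1.5 times. The sums by mouse and by the genotypes of the list were chosen then too. Of 566 alternative values for named genes, 443 kept direction and side of the threshold, 121 kept only the direction and 2 reversed. At a depth of 1275948 reads, values of members of a few CPM, such as Rps4l and Rpl6l, rest on few reads.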

Other observations

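In sorted cells the other lists of the translation machinery also moved in both directions between E16.5 and E18.5. Of 79 ribosome biogenesis factors 8 were called higher and 22 lower at E18.5 by limma, with a median log2 fold change of −0.18, and of 78 mitochondrial ribosomal protein genes 16 were higher and 26 lower (median −0.25). Over all genes tested, higher calls made up 30.3% and lower calls 19.4%, so movement in both directions is not particular to these lists. Of 12 other TOP mRNAs 8 were lower and 0 higher (median −0.95), beside 36 lower and 13 higher of the 79 members. With TMM scaling these medians were −0.25, −0.31 and −1.01. From E18.5 to the adult, 14 of 78 mitochondrial ribosomal protein genes were lower and 0 higher (median −0.44), 3 of 79 biogenesis factors were lower and 0 higher (median −0.25), and 2 of the 79 members were lower. Of all 19554 genes tested there, 1887 were lower (9.65%) and 1830 higher. In E16.5 KO against HE, limma called 0 genes of these 3 lists, with medians of 0.17 for the biogenesis factors, −0.08 for the mitochondrial ribosomal proteins and −0.10 for the other TOP mRNAs, beside −0.25 for the members. Of all 17276 genes tested there, 15 were called higher and 76 lower.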
